A study of Mus musculus with 12 samples.

Results

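The genes of the proteasome described here were the 47 protein-coding genes on chromosomes 1 to 19 of GRCm38 whose symbols start with Psma to Psmg and a number, other than Psmb8, Psmb9 and Psmb10, out of 20665 protein-coding genes on those chromosomes. They hold 14 core particle subunits, 17 regulatory particle subunits and 16 other genes: activators, an inhibitor, assembly chaperones, tissue-specific subunits and 3 genes that match by name alone. Open chromatin was mapped by ATAC-seq, in which the Tn5 transposase cuts and tags accessible DNA, in mouse embryonic stem cells of a BL6xCAST cross. All cells carried a synthetic DNA on chromosome X, named synHPRT1 in 6 libraries and synHPRT1R in the other 6, and each genotype was made of 2 clones with 3 replicates per clone. No library lacked an insert, so both groups share a construct on that chromosome. All cells grew on gelatin in a medium that mixed mostly 2i medium with serum-containing stem cell medium, both with LIF. Whether the replicates of a clone were separate cultures is not stated in the labels, so a p-value below reflects only how much these libraries vary, which may be technical variation. The deposited peak lists held 38403 to 63704 peaks per library, and read depth is unknown.

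The proteasome is the large protease that degrades proteins tagged with ubiquitin. Its core particle is a barrel of stacked rings, with alpha subunits forming the gated outer rings and beta subunits forming the inner rings, some of which carry the proteolytic sites. The regulatory particle caps the barrel, and its ATPase ring unfolds substrates while its non-ATPase subunits recognise and remove ubiquitin. Proteasome genes are active in nearly all cells, and pluripotent cells are known for high proteasome activity. A peak marks accessible DNA and is not a measure of transcription.

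All 12 libraries held a peak no more than 1 kb from an annotated gene end at 35 of the 47 genes (74.5%). Over all protein-coding genes this share was 49.6% (10254 of 20665). Only 3 of the 47 genes had no such peak in any library, against 29.9% of all genes, and 9 had one in 1 to 11 libraries. The 73 cytosolic ribosomal protein genes gave 57 genes with a peak in all 12 libraries (78.1%), and the 78 mitochondrial ribosomal protein genes gave 63 (80.8%), so a share of this size was not particular to proteasome genes. Each library held a peak at 38 to 43 of the 47 genes (80.9% to 91.5%), beside 56.5% to 65.1% of all genes. The lowest count, 38, came from replicate 3 of synHPRT1 clone 2, which also had the shortest list. Without it, 37 genes had a peak in every remaining library. Embryonic stem cell markers were open in the same lists, with 8 of 10 having a peak in all 12 libraries. Pou5f1 had one in 6 libraries, and Esrrb had one near a gene end in 1 library but near its start site in all 12. By gene ends, none of 8 fibroblast or feeder markers was open in all 12 libraries. Col1a1 was open there in 11, Pdgfrb in 9 and Col1a2 in 8. None of 5 genes taken as silent was open at its ends in any library. Counted over the whole gene, however, Pdgfrb was open in all 12 libraries, Col3a1 in 8 and Lum in 1. The other fibroblast or feeder markers kept their counts. Of the genes taken as silent, Ptprc was open by that count in all 12 libraries and Myh6 in 1. The part of other cells in the proteasome peaks was not tested.

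**Figure D1:**
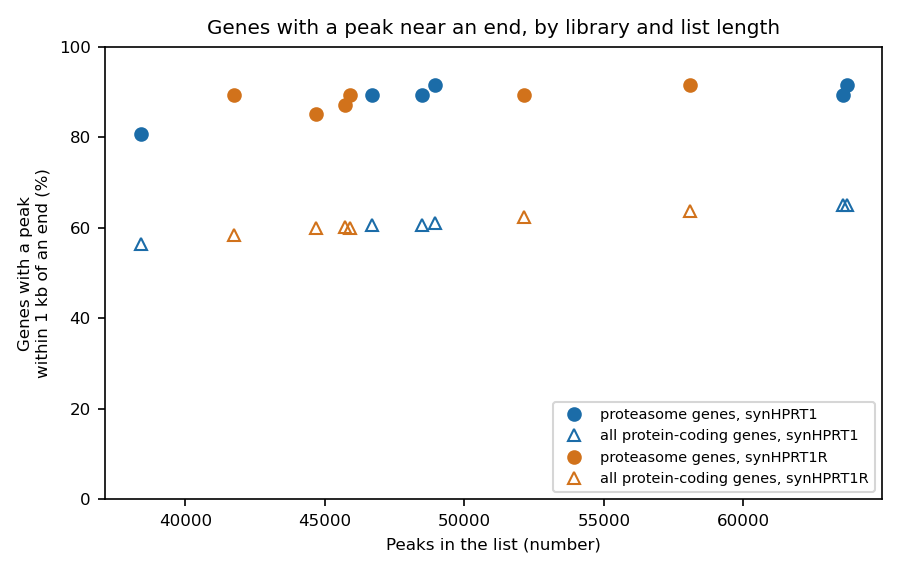
Percent of genes with a peak up to 1 kb from an end (vertical axis) against the number of peaks in the list (horizontal axis). Each library gives a filled circle for the 47 proteasome genes and an open triangle for all 20665 protein-coding genes, coloured by genotype. Proteasome genes lay at 80.9% to 91.5% and all genes at 56.5% to 65.1%, and the shortest list gave the lowest value of both.

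RefSeq promoter sequences (GRCm38.p6) were matched for 39 of the 47 genes. The stretches below run 5′ to 3′ along the gene's strand, from 170 bases before the start site to just past it. They are shown because the results turn on them: Psma2, Psma5 and Psma1 had the highest-ranking peaks of the 47 genes, Psma6 and Psmf1 had a peak only at a start site inside the annotated gene, and Psmc6, Psmd4, Psmd6 and Psmd12 stand for the regulatory particle. Psmb5, Psmb6 and Psmd9 had a peak in fewer than 12 libraries. Capitals mark CCGGAAG, the core of binding sites of ETS transcription factors, and TGACNNNGC, a strict form of the antioxidant response element, on either strand.
Psma2, chr13:14613072-14613271, plus strand: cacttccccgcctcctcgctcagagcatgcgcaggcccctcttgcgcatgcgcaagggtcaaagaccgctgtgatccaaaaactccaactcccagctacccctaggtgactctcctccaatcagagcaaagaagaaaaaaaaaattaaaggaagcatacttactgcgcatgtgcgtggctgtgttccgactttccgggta
Psma5, chr3:108256756-108256955, plus strand: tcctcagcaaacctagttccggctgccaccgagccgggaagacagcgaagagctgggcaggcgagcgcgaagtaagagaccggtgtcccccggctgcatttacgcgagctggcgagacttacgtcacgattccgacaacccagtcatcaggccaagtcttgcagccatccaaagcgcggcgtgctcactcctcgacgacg
Psma1, chr7:114276087-114276286, minus strand: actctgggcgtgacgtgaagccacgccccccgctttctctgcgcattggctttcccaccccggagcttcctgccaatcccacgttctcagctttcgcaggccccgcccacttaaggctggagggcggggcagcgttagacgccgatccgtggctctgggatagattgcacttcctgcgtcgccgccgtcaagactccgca
Psma6, chr12:55398655-55398854, plus strand: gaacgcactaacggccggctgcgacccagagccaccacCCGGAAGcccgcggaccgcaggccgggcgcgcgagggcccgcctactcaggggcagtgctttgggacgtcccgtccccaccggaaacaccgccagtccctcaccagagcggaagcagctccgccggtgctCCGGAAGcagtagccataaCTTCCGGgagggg
Psmb5, chr14:54617966-54618165, minus strand: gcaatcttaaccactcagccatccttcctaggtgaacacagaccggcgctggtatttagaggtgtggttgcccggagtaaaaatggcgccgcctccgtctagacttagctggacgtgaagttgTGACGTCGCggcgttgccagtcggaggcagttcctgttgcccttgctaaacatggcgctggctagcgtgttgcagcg
Psmb6, chr11:70525187-70525386, plus strand: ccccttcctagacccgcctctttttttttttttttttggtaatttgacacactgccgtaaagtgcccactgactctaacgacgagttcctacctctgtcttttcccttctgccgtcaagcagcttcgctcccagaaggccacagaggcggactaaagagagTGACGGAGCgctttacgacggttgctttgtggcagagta
Psmc6, chr14:45329654-45329853, plus strand: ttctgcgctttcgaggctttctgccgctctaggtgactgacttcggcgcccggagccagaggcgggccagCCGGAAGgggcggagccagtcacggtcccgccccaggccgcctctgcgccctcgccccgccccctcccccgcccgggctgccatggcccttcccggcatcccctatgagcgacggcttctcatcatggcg
Psmd4, chr3:95042585-95042784, minus strand: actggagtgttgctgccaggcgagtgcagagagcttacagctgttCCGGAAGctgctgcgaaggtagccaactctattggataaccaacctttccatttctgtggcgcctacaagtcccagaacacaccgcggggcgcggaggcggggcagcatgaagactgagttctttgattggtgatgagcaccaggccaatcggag
Psmd6, chr14:14120916-14121115, minus strand: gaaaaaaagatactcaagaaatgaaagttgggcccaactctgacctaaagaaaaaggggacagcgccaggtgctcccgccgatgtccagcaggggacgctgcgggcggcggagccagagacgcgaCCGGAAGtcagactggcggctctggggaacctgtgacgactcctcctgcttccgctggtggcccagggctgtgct
Psmd12, chr11:107479358-107479557, plus strand: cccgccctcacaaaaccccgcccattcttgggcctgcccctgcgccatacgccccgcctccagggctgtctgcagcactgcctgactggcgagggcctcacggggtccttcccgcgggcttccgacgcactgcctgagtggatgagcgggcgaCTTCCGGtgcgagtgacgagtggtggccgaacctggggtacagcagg
Psmf1, chr2:151741281-151741480, minus strand: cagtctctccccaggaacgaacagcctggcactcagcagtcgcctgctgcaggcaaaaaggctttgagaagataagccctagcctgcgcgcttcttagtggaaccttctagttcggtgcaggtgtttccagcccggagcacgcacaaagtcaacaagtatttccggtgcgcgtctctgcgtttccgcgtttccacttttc
Psmd9, chr5:123228020-123228219, plus strand: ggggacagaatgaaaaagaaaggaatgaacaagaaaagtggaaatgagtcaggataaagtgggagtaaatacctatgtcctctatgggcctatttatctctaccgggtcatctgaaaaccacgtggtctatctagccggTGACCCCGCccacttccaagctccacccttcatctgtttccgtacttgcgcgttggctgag
The ETS letters occurred in Psma6, Psmc6, Psmd4, Psmd6 and Psmd12 of these stretches, and the strict antioxidant response element in Psmb5, Psmb6 and Psmd9. Neither occurred in the stretches of Psma1, Psma2, Psma5 and Psmf1. The printed genes are a selection and do not stand for their groups in these letters. Psmg3, Psme3, Psmb11, Psme1 and Psmd2, which also had a peak in fewer than 12 libraries, lacked the strict element in their promoters. Psmd1, Psmd14, Psmc4, Psmc5 and Psmd8 of the regulatory particle lacked the ETS letters.

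The alpha ring genes had a higher median rank than the beta ring or the regulatory particle. The rank of a peak is given here as the percent of peaks in the same list with a lower fold, where the fold is the authors' enrichment of the summit over its local background, and a gene takes its highest-fold peak near an end. Ranks depend on list length: the median over all genes with a peak was 70.4% in the shortest list and 78.9% in the longest, so ranks given by genotype are a description. Median ranks of the 6 alpha ring genes with a peak at an end ran from 69.8% to 97.6%, with a median of 89.0%, while the median over all protein-coding genes with a peak was 69.4%. Psma2, an alpha subunit on chromosome 13 (14613242 to 14625673), had ranks of 95.3% at the lowest, 97.0% at the median and 99.6% at the highest in the 6 synHPRT1 libraries. In the 6 synHPRT1R libraries its ranks were 96.8%, 98.1% and 99.4%. The genotypes overlapped, and every library placed this peak among the top few percent of its list. Its fold was 9.94 to 13.8 over the 12 libraries. Psma5 (chromosome 3, 108256926 to 108279952) had ranks of 93.2%, 97.8% and 98.6% in synHPRT1 and of 94.8%, 97.1% and 99.5% in synHPRT1R. Psma1 (chromosome 7, 114264550 to 114276116) had ranks of 91.1%, 97.7% and 99.3% in synHPRT1 and of 89.8%, 96.1% and 98.8% in synHPRT1R. All 3 genes were open at a high rank in both genotypes, with overlapping groups. Their peaks differed in width, at a median of 707.5 bp for Psma2, 864 bp for Psma5 and 1188.5 bp for Psma1. Psma7 had the widest peak of all 47 genes, at a median of 1406 bp (1043 to 1574 bp), but a lower rank, at a median of 73.2%. Psma4 had a median rank of 80.8% and Psma3 of 69.8%.

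Psma6, the remaining alpha subunit (chromosome 12, 55384222 to 55418459), had no peak near either gene end in any library. RefSeq gives it 2 start sites, and the inner one, at 55398825, lies 14603 bp inside the gene. A peak lay over that inner start site in 12 of 12 libraries and over the outer one in none. The inner peak had a fold of 6.40 at the lowest, 8.53 at the median and 12.8 at the highest in synHPRT1, and of 7.33, 8.97 and 10.4 in synHPRT1R. Its median rank over all libraries was 88.7%. Psma3 had a start site of the same kind in addition to its end: its RefSeq start site at 70974623 lies 5340 bp inside the annotated gene and had a peak over it in all 12 libraries. The peak counted at the gene end of Psma3 lay at a median of -5883 bp from that start site, that is, before it.

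The beta ring genes had lower ranks and narrower peaks than the alpha ring genes. The median ranks of the 7 genes ran from 45.5% to 83.0%, with a median of 65.9%, and their median widths from 311 to 715.5 bp, with a median of 518.5 bp. Alpha ring widths ran from 707.5 to 1406 bp, with a median of 928 bp. The alpha ring median was above the beta ring median in 12 of 12 libraries for rank, by 23.8 ± 11.8 percentage points (mean ± SD over libraries), and in 12 of 12 for width, by 411.8 ± 99.4 bp. With start sites counted beside gene ends, which brings in Psma6, it was above in 12 of 12 libraries for both, by 25.5 points and 318.7 bp. This contrast of the rings was chosen after their values were seen and has no test. The peaks of Psma2, Psma4 and Psma7, and of Psmb3 in the beta ring, also came near another gene, as described below. They cannot be assigned to these ring genes alone. Psmb5, which carries the chymotrypsin-like site, had a peak in 11 libraries and the lowest median rank of the core particle. Its ranks were 34.2%, 37.7% and 56.2% (lowest, median and highest) in the 5 synHPRT1 libraries with a peak and 7.83%, 47.5% and 73.4% in the 6 synHPRT1R libraries. The genotypes overlapped widely, and the library without a peak was replicate 3 of synHPRT1 clone 2. In 10 libraries Psmb5 had a peak within 1 kb of its start site. The peaks counted had summits from -306 to 4797 bp from that site, so a peak near the other gene end was included. Psmb6, which carries the caspase-like site, also had a peak in 11 libraries, missing in replicate 1 of synHPRT1R clone 2. Its ranks ran from 18.9% to 82.3% with a median of 66.4%, and its median width of 311 bp was the narrowest of the core particle. Psmb7, which carries the trypsin-like site, had a peak in all 12 libraries, with a median rank of 65.9% and a median width of 715.5 bp. Among the beta subunits without a proteolytic site, Psmb1 had the highest median rank, at 83.0%, followed by Psmb2 at 73.7%, Psmb4 at 63.1% and Psmb3 at 60.2%. The spread over libraries was as large as these steps: the ranks of Psmb4 ran from 12.1% to 92.0%.

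The regulatory particle had a peak at a gene end in all 12 libraries at 16 of 17 genes, and the core at 11 of 14. Counting any peak over the gene, the regulatory particle had 16 of 17, the core 12 of 14 and the alpha ring of the core 7 of 7. By that count, 60.15% of all protein-coding genes had a peak in all 12 libraries. The median rank of the 17 regulatory genes was 85.2% (53.3% to 94.7%). All 6 ATPase genes had a peak in every library, with median ranks from 65.3% for Psmc1 to 94.7% for Psmc3. Psmc3 had ranks of 87.9%, 92.0% and 98.8% in synHPRT1 and of 92.6%, 96.6% and 98.9% in synHPRT1R, so the groups overlapped. Psmc6 followed at a median rank of 90.6%, Psmc4 at 88.0%, Psmc5 at 71.6% and Psmc2 at 67.2%. Psmc6 and Psmc2 had wide peaks, at medians of 1162 and 1007 bp. Among the 11 non-ATPase genes, Psmd4, a ubiquitin receptor, had the highest median rank, at 94.0% (86.6% to 98.9%). The lid subunits Psmd6 and Psmd13 had median ranks of 91.2% and 90.9%, and Psmd14, the deubiquitinase of the lid, had 85.2%. Psmd12, another lid subunit, combined a median rank of 84.2% with the narrowest peak of the regulatory particle, at a median of 478.5 bp. The other lid subunits, Psmd8, Psmd7, Psmd3 and Psmd11, had median ranks of 88.6%, 87.1%, 75.6% and 69.7%. The scaffold subunits of the base were lower, with Psmd1 at 69.3% and Psmd2 at 53.3%. Psmd2 (chromosome 16, 20651122 to 20663414) was the only regulatory gene without a peak in every library. It had ranks of 12.1%, 53.4% and 61.8% in the 6 synHPRT1 libraries and of 36.8%, 52.7% and 78.8% in the 5 synHPRT1R libraries with a peak, and replicate 2 of synHPRT1R clone 2 had none.

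**Figure D2:**
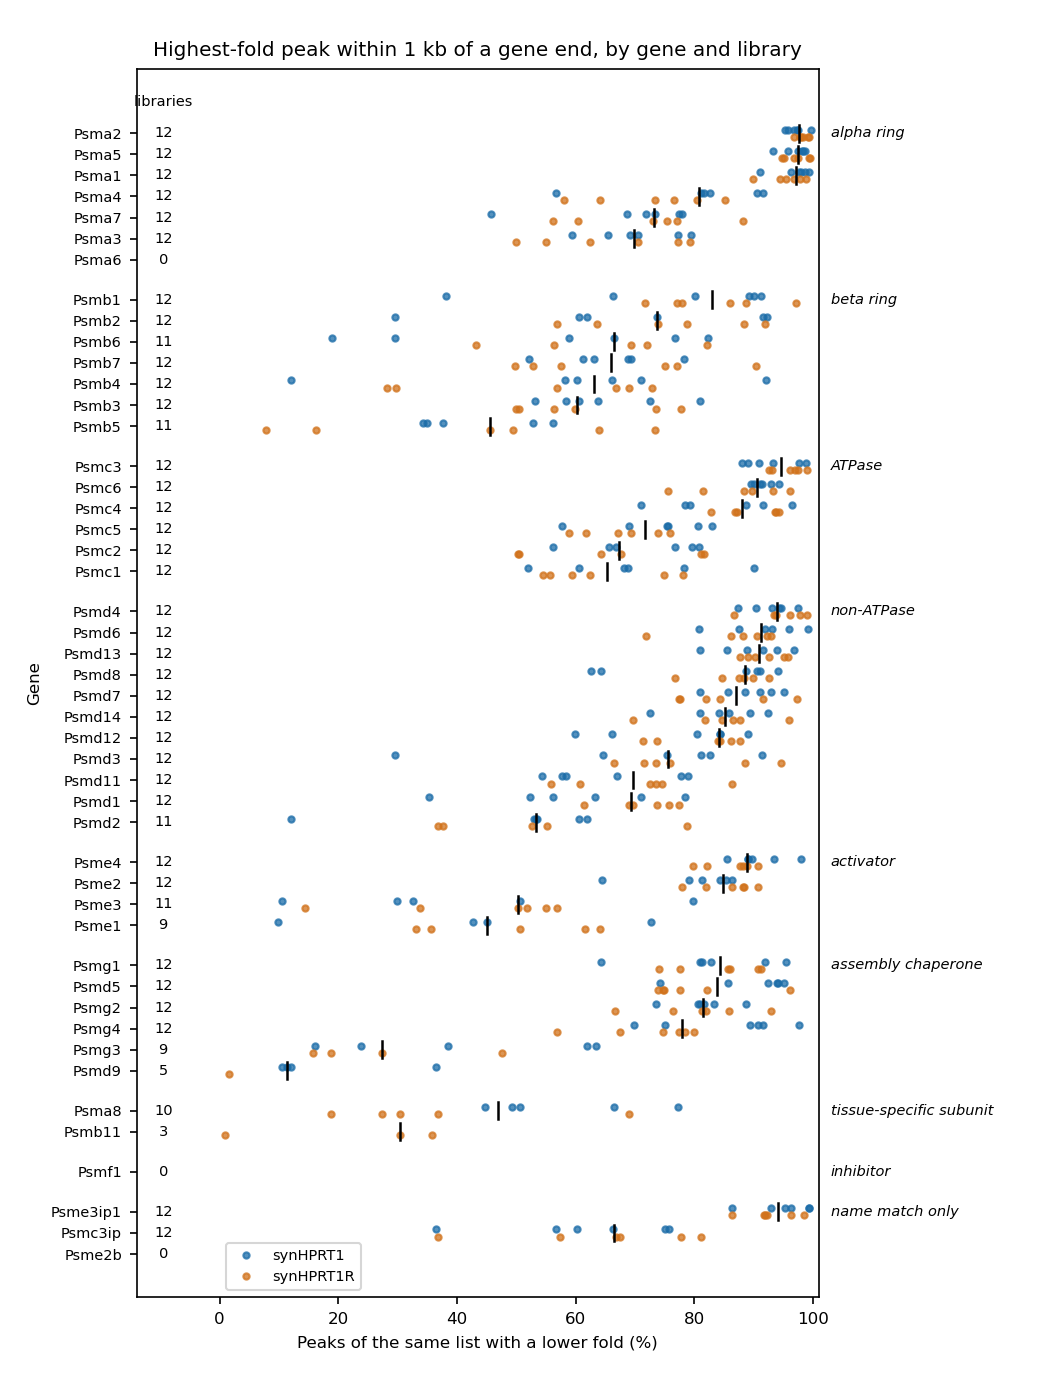
Percent of peaks of the same list with a lower fold (horizontal axis) for the highest-fold peak near a gene end of each gene (vertical axis), grouped by role and sorted by median. Points are libraries coloured by genotype, black bars are medians over all libraries with a peak, and the left column gives the number of libraries with a peak out of 12. Psma2, Psma5 and Psma1 lie near the right edge in every library, Psmd9 and Psmb11 have few points at low ranks, and Psma6, Psmf1 and Psme2b have none.

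Set against each other, the core particle ranked below the regulatory particle in each list. The median rank of core genes was 52.6% at the lowest, 70.9% at the median and 82.3% at the highest in the 6 synHPRT1 libraries, and 58.1%, 75.9% and 78.8% in the 6 synHPRT1R libraries. The median rank of regulatory genes was 71.0%, 82.5% and 90.5% in synHPRT1 and 77.4%, 83.4% and 86.8% in synHPRT1R. Core minus regulatory was below 0 in 12 of 12 libraries, from -19.3 to -3.48 percentage points, with a mean of -10.7 ± 5.75 (SD, n = 12 libraries). The mean was -12.1 in synHPRT1 and -9.43 in synHPRT1R, and all 4 clone means were below 0, from -15.0 to -5.99. The difference depended on which peaks stood for a gene. With start sites counted beside gene ends it was -6.24, below 0 in 11 of 12 libraries, and with the start sites of the promoter table alone it was -2.93, below 0 in 9 of 12. That table lacks Psmb1, Psmb2, Psmb7, Psmc3, Psmd3 and Psmd7 and brings in Psma6. The rings of the core lay on either side of the regulatory particle, with the alpha ring at a median of 89.0%, the regulatory particle at 85.2% and the beta ring at 65.9%. For peak width the direction depended on the subunits compared. Core minus regulatory width was -28.1 ± 87.4 bp (mean ± SD), below 0 in 8 of 12 libraries, and it was -104.2 bp against the ATPase genes alone, below 0 in 10 of 12. Against the non-ATPase genes alone the mean was 12.6 bp, with 7 of 12 libraries below 0, and with the start sites of the promoter table it was 17.3 bp, with 5 of 12 below 0.

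**Figure D3:**
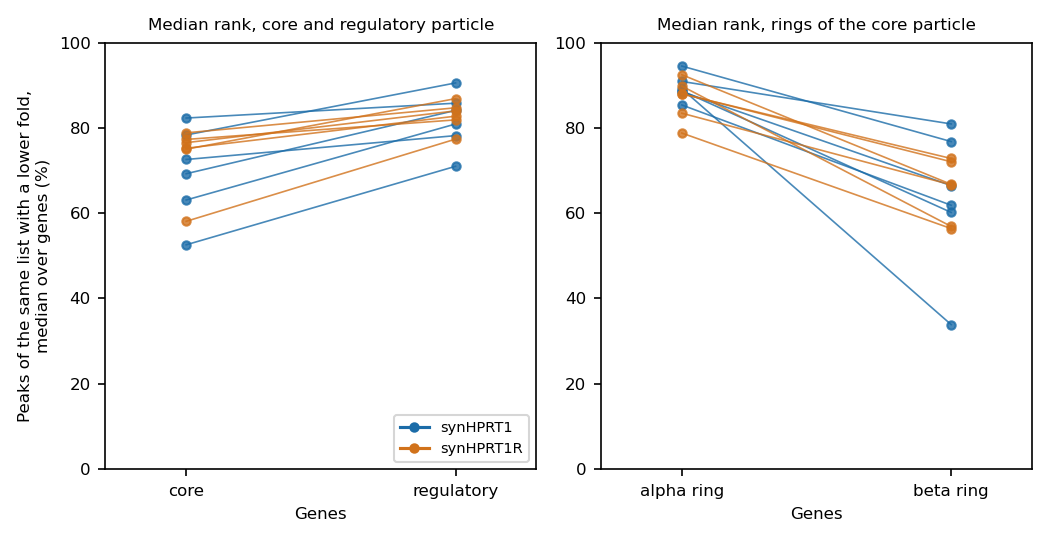
Median rank over genes, as percent of peaks of the same list with a lower fold (vertical axis), for core and regulatory particle genes (left) and for the alpha and beta rings of the core (right). Each line joins the values of 1 library, coloured by genotype. All 12 lines rise from core to regulatory particle and all 12 fall from alpha to beta ring, by 9.96 to 55.3 percentage points.

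Of the 16 genes outside both particles, 8 had a peak in all 12 libraries (50.0%), a share close to the 49.6% of all protein-coding genes. Median ranks of those with a peak ran from 11.3% to 94.1%. Among the activators, which open the core without ATP, Psme4 and Psme2 had a peak in all 12 libraries, with median ranks of 88.9% and 84.8%. The Psme2 summit lay at a median of -537.5 bp from its start site, toward the start site of Rnf31, 641 bp away. Its rank therefore cannot be assigned to Psme2 alone. Psme3, the nuclear activator, had a peak in 11 libraries at a median rank of 50.3%, and Psme1, the partner of Psme2, in 9 libraries at 45.0%. Psme3 lacked it in replicate 3 of synHPRT1 clone 2, and Psme1 in 2 synHPRT1 libraries and 1 synHPRT1R library. Psmf1, known as a proteasome inhibitor (chromosome 2, 151716062 to 151744199), resembled Psma6: it had no peak at a gene end in any library, but its RefSeq start site at 151741310, which lies 2889 bp inside the gene, had one over it in 12 of 12. That peak had a fold of 7.28, 8.09 and 9.92 (lowest, median and highest) in synHPRT1 and of 5.81, 8.81 and 9.58 in synHPRT1R, and a median rank of 88.4%.

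The chaperones that assemble the core and the base fell into a high and a low group. Psmg1, Psmd5, Psmg2 and Psmg4 had a peak in all 12 libraries at median ranks of 84.2%, 83.9%, 81.5% and 77.9%. Psmg3 had a peak in 9 libraries (5 synHPRT1 and 4 synHPRT1R), with ranks from 15.7% to 63.4%, a median of 27.3% and a median width of 297 bp. In 8 libraries Psmg3 had a peak within 1 kb of its start site. The peaks counted had summits from 34 to 2308 bp into the gene. Psmd9, a chaperone of the base (chromosome 5, 123228190 to 123250126), had a peak in 5 libraries. Among the 44 proteasome genes with a peak at an end, its median rank and width were the lowest, at 11.3% and 258 bp. Its folds were 3.64 in synHPRT1 clone 1 replicate 1, 3.18, 4.59 and 4.02 in replicates 1 to 3 of synHPRT1 clone 2, and 2.90 in synHPRT1R clone 2 replicate 1. Thus 4 synHPRT1 libraries and 1 synHPRT1R library had the peak, at ranks from 1.54% to 36.5%.

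Both tissue-specific subunits had a median rank below the median of the 44 proteasome genes with a peak at an end, 76.7%. Psmb11, the beta subunit of thymus epithelium, had a peak in 3 libraries, all synHPRT1R, with ranks of 35.7% and 0.970% in replicates 1 and 3 of clone 1 and 30.5% in replicate 1 of clone 2. Its peaks had a median width of 266 bp and did not lie over the start site in any library. Psma8, the alpha subunit of the male germ line, had a peak in 10 libraries at ranks from 18.8% to 77.3%, with a median of 47.0%, and lacked it in replicate 3 of synHPRT1 clone 2 and of synHPRT1R clone 2. Of the genes that match by name alone, Psme3ip1, whose product binds Psme3, had a median rank of 94.1% and a median width of 1219.5 bp, and Psmc3ip, a meiotic recombination factor, had 66.5% and 583 bp. Psme2b had no peak in any library. It is a close copy of Psme2, and whether its reads can be placed uniquely was not tested.

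Most peaks of proteasome genes sat at their start sites. Of 36 genes with a peak at a gene end and a RefSeq start site, 33 (91.7%) had a median summit within 200 bp of it, while among all such protein-coding genes the share was 62.3% (7176 of 11516). The median distance was -38.5 bp, that is, just before the start site. The 3 exceptions were Psma3, described above, Psme2 at -537.5 bp and Psmb11 at 493 bp. Measured by start sites alone, a peak within 1 kb was present in all 12 libraries for 30 of 39 proteasome genes, against 52.1% of the 16457 protein-coding genes in the table. Psme2b had none, and Psmd9, Psmg3, Psmb6, Psme3, Psmb5, Psmb11, Psme1 and Psmd2 had one in 3 to 11 libraries. The summit of a gene moved by a median range of 257 bp between libraries.

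**Figure D4:**
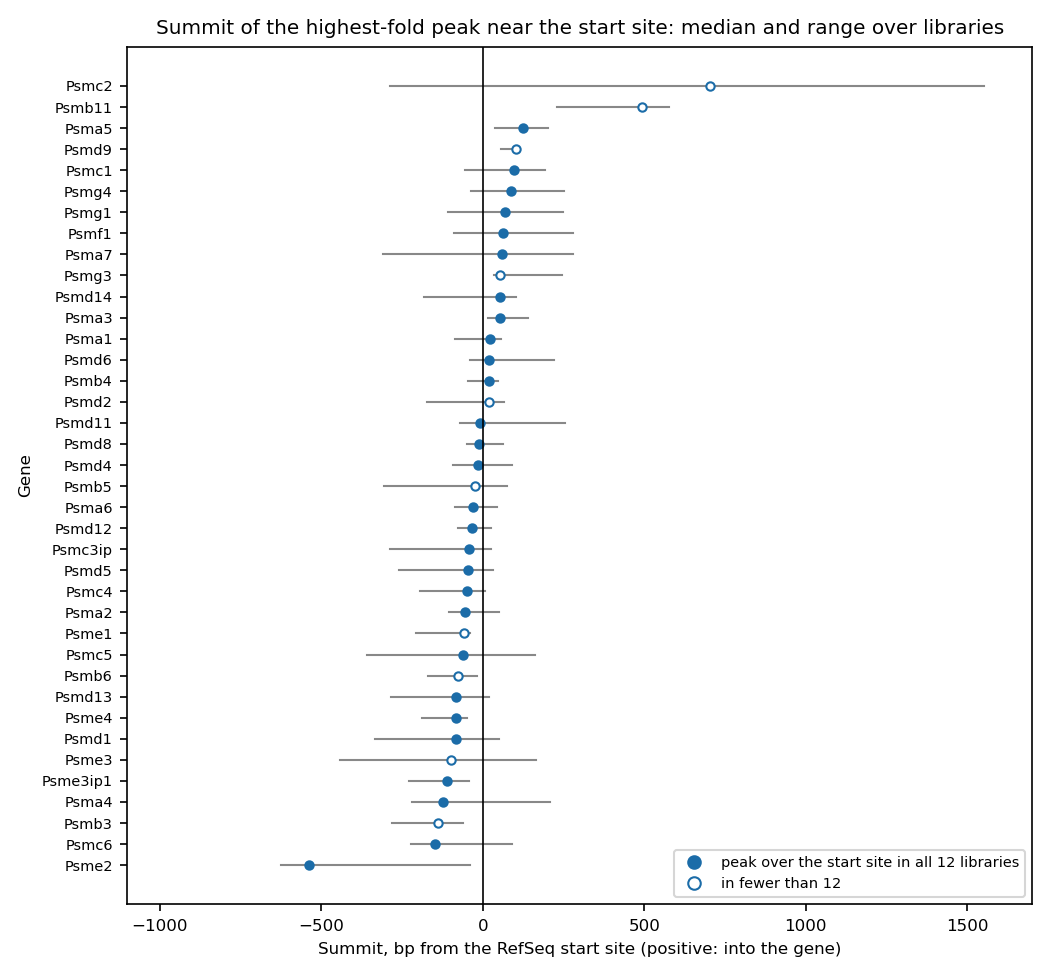
Distance of the summit from the RefSeq start site in bp (horizontal axis, positive into the gene) for the highest-fold peak within 1 kb of a start site, by gene (vertical axis). Points are medians and lines are ranges over libraries with a peak, filled where a peak covered the start site in all 12 libraries, and for genes with 2 start sites the one with the smaller median distance is used. Most of the 38 genes lie close to 0, including Psma6 and Psmf1, while Psme2, Psmc2 and Psmb11 lie apart. The place of Psmc2 comes from pooling peaks near its 2 start sites, the inner one 1472 bp inside the gene. A peak covered the outer site in 9 libraries and the inner one in 12. The peak of Psmc2 at its gene end had a median summit of -151.5 bp.

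For 13 of the genes the peak also came within 1 kb of an end of another protein-coding gene, in 12 of 12 libraries, so it cannot be assigned to the proteasome gene alone. Several of these pairs are divergent, with start sites back to back. How often a peak is shared in this way among all protein-coding genes was not counted, so the 13 are not shown to be unusual. The start sites of Psma7 and Ss18l1 are 19 bp apart, those of Psmd13 and Sirt3 85 bp, those of Psmc5 and Ftsj3 101 bp, and those of Psma2 and Mrpl32 205 bp. The start sites of Psme3ip1 and Rspry1 are 215 bp apart and those of Psme2 and Rnf31 are 641 bp apart, and Psmb3 and Pcgf2 are divergent with a wider gap of 3786 bp. Psmc2 and Dnajc2 have gene ends 11 bp apart. The remaining ones are Psma4 with AY074887 and Hykk, Psmd8 with Catsperg1, Psmc3ip with Retreg3, Psmg1 with Brwd1, and Psmg2 with Cep76, and Psme3ip1 also has a predicted gene in reach. The summit of Psme2, at a median of -537.5 bp from its start site (-625 to -41 bp), lies in the interval toward Rnf31.

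Promoters of the regulatory particle held the ETS letters more often than those of the core, a count without a test. Motifs were searched on both strands in the 300 bases of the table, and 43 promoters of 39 proteasome genes were compared with 20085 promoters of protein-coding genes. The ETS letters CCGGAAG occurred in 17 of 43 proteasome promoters (39.5%), in 11.9% of all promoters and in 21.7% of the 7293 promoters with a peak over the start site in all 12 libraries. They occurred in 10 of 15 promoters of the regulatory particle (Psmc1, both of Psmc2, Psmc6, Psmd2, Psmd4, Psmd6, Psmd11, Psmd12 and Psmd13) and in 1 of 12 of the core, the inner promoter of Psma6. Cytosolic and mitochondrial ribosomal protein promoters held them at 38.1% and 34.7%. The antioxidant response element TGANNNNGC, through which the transcription factor Nfe2l1 is known to act on proteasome genes, occurred in 25 of 43 (58.1%) against 41.6% of all promoters, in 9 of 12 of the core and in 6 of 15 of the regulatory particle. Its strict form TGACNNNGC, which is contained in it, occurred in 6 of 43 (14.0%) against 13.1% of all promoters: Psmb5, Psmb6, Psmc6, Psmd9, Psmd12 and Psme4. CCAAT occurred in 32.6% of proteasome promoters against 38.1% of all promoters, and TATAAA in 6.98% against 12.7%. The GC box GGGCGG occurred in 53.5% against 47.0% of all promoters and 71.2% of those with a peak over the start site in all 12 libraries. The YY1 letters ATGGCGG occurred in 9.30% against 5.29%, and the nuclear respiratory factor letters GCGCATGC in 6.98% against 3.55%. Among promoters with a peak over the start site in all 12 libraries, ATGGCGG occurred in 8.95%, GCGCATGC in 6.07% and TATAAA in 5.35%. There, CCAAT occurred in 43.4%, TGANNNNGC in 44.0% and TGACNNNGC in 15.4%. ATGGCGG, GCGCATGC and TATAAA each occurred in 3 of the 29 proteasome promoters with a peak over the start site in all 12 libraries (10.3%). The lower share of TATAAA beside all promoters was thus not seen among open promoters. Counts of 3 are too few to read a difference from. Of these 29 promoters, 44.8% held CCGGAAG, 62.1% GGGCGG, 31.0% CCAAT, 62.1% TGANNNNGC and 10.3% TGACNNNGC. These are matches of letters and not observed binding. Genes with the ETS letters had a median rank of 84.2% (15 of 16 with a peak at a gene end) and those without had 73.2% (21 of 23). By start sites, the gap was smaller, at 84.2% with the letters and 78.7% without. The letters and the particle go together in these promoters, and their part in the rank was not tested.

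Ranks and widths varied both among the genes and among libraries. Over the 35 genes with a peak in all 12 libraries, the SD of the median rank among genes was 11.1 percentage points, and the median SD of a gene's rank over libraries was 9.30. For width the SD of the medians among genes was 227.1 bp, and the median SD over libraries was 142.9 bp. The first of each pair is a spread of medians over 12 libraries and the second a spread of single values. Across these genes, ranks in pairs of libraries had a Spearman rho of 0.471 to 0.782, with a median of 0.639 over 66 pairs. These are descriptions across genes, which are not independent replicates and share peak calling and base composition. Rank and width were weakly related across the genes, with a Spearman rho of 0.259.

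No proteasome gene passed a test between the genotypes after adjustment. A peak was present at 38 to 43 of the 47 genes in synHPRT1 libraries and at 40 to 43 in synHPRT1R libraries, with a mean of 41.7 in both (SD 1.86 and 1.03, n = 6 libraries each). Presence was compared by Fisher's exact test (two-sided, Benjamini-Hochberg over 4234 genes with a peak in 1 to 11 libraries), and no gene passed at an adjusted p under 0.05, while 10 genes (0.236%) had an unadjusted p under 0.05. None of the 9 proteasome genes tested was among them. Psmb11, with a peak in 0 of 6 synHPRT1 and 3 of 6 synHPRT1R libraries, had an exact p of 0.182, and Psmd9, with 4 of 6 and 1 of 6, had 0.242. Width was compared by an exact permutation test (two-sided, log2 width) over 10254 genes, and none passed after adjustment, while 513 (5.00%) had an unadjusted p under 0.05. Among the 35 proteasome genes tested, 4 had an unadjusted p under 0.05, and all 4 had an adjusted p of 0.959. Rank was compared in lists of equal length over 9541 genes, with none passing and 547 (5.73%) at an unadjusted p under 0.05, none of them among the 35 proteasome genes tested. The smallest p of a proteasome gene there was 0.0519 in the exact permutation test, for the chaperone Psmd5, with equal-length ranks of 74.2%, 90.3% and 92.5% in synHPRT1 and 70.0%, 72.4% and 94.0% in synHPRT1R. With 6 libraries against 6 the smallest exact p is 0.00216, so an adjusted call would need at least 184 fully separated genes for presence, 444 for width and 414 for rank. A count of 0 therefore does not show that the genotypes were alike. The tests treated the 3 libraries of a clone as independent. With 2 clones per genotype, the p-values do not account for variation between clones.

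The 4 genes with an unadjusted width difference were of different roles, and none holds after adjustment. Psmd12 had widths of 471, 556 and 741 bp (lowest, median and highest) in synHPRT1 and of 403, 436.5 and 512 bp in synHPRT1R, so the groups overlapped (log2 difference 0.35, exact permutation p = 0.0108). Clone means were 576.3 and 575 bp against 440.7 and 450 bp. Psmb7 had 836.8 ± 108 bp in synHPRT1 and 665.5 ± 58.9 bp in synHPRT1R (mean ± SD, n = 6 libraries each), with overlapping ranges (log2 difference 0.32, exact permutation p = 0.0152). Psmc1 went the other way, with 405, 493 and 593 bp in synHPRT1 and 513, 672 and 918 bp in synHPRT1R (log2 difference -0.45, exact permutation p = 0.0152). Psmc6 had 1137, 1277 and 1312 bp in synHPRT1 and 866, 1033.5 and 1298 bp in synHPRT1R (log2 difference 0.23, exact permutation p = 0.0390). Over the 35 genes, 19 were wider in synHPRT1 and 16 in synHPRT1R. Of all genes tested 63.2% were wider in synHPRT1, and the 513 with an unadjusted p under 0.05 comprised 423 wider in synHPRT1 and 90 in synHPRT1R. For the 35 genes the median log2 difference was 0.03, beside 0.05 over all genes tested.

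Other genes of the ubiquitin-proteasome pathway were as widely open. Of 28 listed genes, 24 had a peak in all 12 libraries by the same count (85.7%), beside 49.6% of all protein-coding genes. The cytosolic and mitochondrial ribosomal protein genes gave 78.1% and 80.8%. Among the 24 were Pomp, the maturation factor of the core, and the regulatory particle subunits Adrm1 and Sem1. The transcription factors Nfe2l1 and Nfe2l2 and Vcp, the segregase that extracts ubiquitinated proteins, were also among them. The shuttle factor Ubqln1 had one in 11 libraries. Ecpas, which binds proteasomes, had none at its gene ends and one near its RefSeq start site in all 12, like Psma6 and Psmf1. Of the immunoproteasome subunits, which replace the proteolytic beta subunits, Psmb9 had a peak in 12 libraries, Psmb10 in 4 and Psmb8 in 2.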

How the data were processed

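ATAC-seq peak lists of 12 libraries were analysed, grouped by the genotype, clone and replicate number in the sample titles. Per the submitters' processing notes, the tools were MACS2 2.1.0, Bowtie2 2.2.9, SAMtools 1.9, bcl2fastq 2.20 and deepTools 3.5.0, with GRCm38. Not given in the sources used here are their settings, any Tn5 shift, duplicate removal or blacklist. The authors deposited 1 narrowPeak list per library, so peaks were called per sample. In these lists the deposited score is an integer scaled from significance, the deposited fold is a ratio of the summit to its background, and the deposited −log10 values of p and q (p-value, q-value) belong to the summit. The lowest −log10 q-value was 1.30. The deposited summit column is an offset from the peak start.

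Peaks were joined to gene ends of RefSeq GRCm38.p6 within 1 kb, and the highest-fold peak gave a gene's width and rank. No fold was compared between lists by a test. Genotypes were compared by Fisher's exact test or exact permutation over all protein-coding genes with Benjamini-Hochberg adjustment at 0.05. For rank, lists were reduced to the length of the shortest by −log10 p-value. The code was tested on simulated data. Whether start sites lie in exons or introns was not analysed here. Python 3.11.15, numpy 2.4.6, pandas 2.3.3 and scipy 1.17.1 were used. The 47 genes, their roles, the gene lists, the motifs and the rule for named genes were chosen with earlier results of these data known. Named were genes with a peak in fewer than 12 libraries, the 3 highest and lowest by rank and by width, those with an unadjusted p under 0.05, and those whose peak reached another gene. Some genes of the pathway list are not reported here by name.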

Additional observations from a re-analysis of the deposited data

Results flagged for a closer look

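Values that stood apart from the other 5 libraries of their genotype by Dixon's criterion were found in 16 of 158 groups of 6 values, where chance alone marks about 1 in 20 groups. In synHPRT1, replicate 3 of clone 2, the library with the shortest list, had a peak at 38 proteasome genes while the others had 42 to 43. The same library gave a Psmc3 width of 603 bp (others 725 to 785). In the lists as deposited it also gave a Psma7 rank of 45.7% (others 68.6% to 77.9%), a Psme2 rank of 64.5% (others 79.0% to 86.4%) and a Psmd2 rank of 12.1% (others 53.0% to 61.8%). Replicate 1 of synHPRT1 clone 1 had a Psmd5 width of 571 bp (others 670 to 715) and a Psma4 rank of 56.7% (others 81.1% to 91.6%). Replicate 2 of that clone had a Psmb2 width of 284 bp (others 549 to 698) and a Psmc2 width of 796 bp (others 996 to 1080). Replicate 1 of synHPRT1 clone 2 had a Psma1 rank of 91.1% (others 96.3% to 99.3%), and replicate 2 had a Psmd4 width of 953 bp (others 574 to 710).

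In synHPRT1R, replicate 3 of clone 2 had a Psmb3 width of 1131 bp (others 379 to 633). Replicate 2 of clone 2 had a Psmd6 rank of 71.9% (others 86.1% to 92.8%) and a Psmb1 width of 377 bp (others 549 to 635). Replicate 1 of clone 1 had a Psmd6 width of 1220 bp (others 509 to 770), and replicate 2 of clone 1 a Psmg2 width of 1396 bp (others 767 to 981). Ranks depend on list length. In lists of equal length, a check chosen after seeing the data, Psma7 (45.7%, others 53.5% to 73.2%), Psme2 (64.5%, others 65.2% to 82.8%) and Psmd2 (12.1%, others 22.3% to 52.0%) of the shortest list no longer stood apart. Psma1 (85.3%, others 95.5% to 99.3%), Psma4 (45.3%, others 76.7% to 86.1%) and Psmd6 (66.5%, others 83.8% to 91.6%) still did.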

How the results depend on the processing

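The count of proteasome genes with a peak in all libraries was 31 when peaks needed a −log10 q-value of 5 or more, and 35 to 37 under the other settings over all 47 genes, leaving out each library included. Core minus regulatory rank stayed below 0 in every setting run, but moved to -2.93 with the start sites of the promoter table, which cover other genes, and to -6.24 with start sites beside gene ends, both chosen after seeing the data. Leaving out 1 library gave -11.4 to -9.97 for rank and -42.1 to -14.1 bp for width. The width difference ran from -104.2 to 17.3 bp over the other settings, as given in the report. The mean difference between genotypes in genes with a peak was 0, and -0.333 to 0.733 without 1 library. No gene passed adjustment between genotypes under any setting run. Same-numbered replicates did not deviate together (correlations of -0.0650 to 0.0551 over 18 pairs), and with the replicate number as a block the adjusted count was 0 for presence, width and rank, with 10, 490 and 475 genes at an unadjusted p under 0.05. Read depth is unknown, and a missing peak in a short list may lie under the calling threshold.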
